A study of Homo sapiens with 8 samples.

Results

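Canonical histone genes were followed in SJRH30 cells, an established alveolar rhabdomyosarcoma line (a childhood muscle-lineage cancer), through 24 h in 1% oxygen. Their probe sets were taken as those annotated to 1 gene symbol alone, where that symbol was H1-1 to H1-6 or H2AC, H2BC, H3C or H4C followed by a number. This gave 41 probe sets for 40 genes, of 22215 non-control probe sets on the array: 6 for linker histone H1, 8 for H2A, 12 for H2B (11 genes, with H2BC5 measured by 2 probe sets), 7 for H3 and 8 for H4. The groups were cells before hypoxia (0 h) and cells after 6, 12 and 24 h in a chamber at 1% oxygen, with 2 arrays each that the labels call biological replicates. Nothing in the labels says whether these came from separate cultures, so the p-values measure the spread between these samples. All cells were grown in medium with serum and antibiotics, and there was no normoxic culture matched to each time among the samples analysed, so effects of hypoxia cannot be told apart from effects of longer culture.

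Canonical histones are the proteins that DNA is wrapped around, and their genes stand in clusters with many nearly identical copies. H2A, H2B, H3 and H4 form the core of the nucleosome, and H1 binds the linker DNA between nucleosomes. Their messenger RNAs accumulate in S phase, when new DNA has to be packaged, and most end in a stem-loop in place of a poly(A) tail. A few of the genes, among them H1-2, H2AC6, H2BC5, H2BC12 and H2BC21, are known to make polyadenylated transcripts too. The labelling kit used here, like others of its type, primes from poly(A) tails, so the values below describe the polyadenylated or otherwise primed part of histone RNA and not the whole of it.

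Promoters of 38 of the 40 genes were in the RefSeq table of assembly GRCh38.p14, 36 of them on chromosome 6 and 2 on chromosome 1. For 5 genes that the results below turn on, the 140 bases before the transcription start are given 5′ to 3′. Capitals mark 4 motifs, each searched on both strands: the octamer ATTTGCAT, the box CCAAT, the box TATAAA and the H1 box, an element of linker histone promoters that stands in capitals near the 5′ end of the H1-2 window. Matches of CCAAT and of its reverse complement are marked alike, and touching matches run together. These genes are shown because H2BC12 passed the test at 6 h with H2BC5 nearest to the threshold, H3C7 passed at 12 h, and H1-2 and H2AC6 had the highest signals of the H1 and H2A classes. The windows are chr6:27146859-27146998 on the minus strand for H2BC12, chr6:26157981-26158120 on the plus strand for H2BC5, chr6:26250636-26250775 on the minus strand for H3C7, chr6:26056471-26056610 on the minus strand for H1-2 and chr6:26124032-26124171 on the plus strand for H2AC6.
H2BC12: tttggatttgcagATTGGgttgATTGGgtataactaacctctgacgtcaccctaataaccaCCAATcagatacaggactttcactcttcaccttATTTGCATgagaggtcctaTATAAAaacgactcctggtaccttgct
H2BC5: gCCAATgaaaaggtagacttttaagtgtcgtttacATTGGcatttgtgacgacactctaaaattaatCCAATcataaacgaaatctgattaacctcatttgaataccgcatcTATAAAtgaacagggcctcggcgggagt
H3C7: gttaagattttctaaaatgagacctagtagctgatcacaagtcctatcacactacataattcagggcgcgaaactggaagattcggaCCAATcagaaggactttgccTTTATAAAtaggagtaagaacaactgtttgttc
H1-2: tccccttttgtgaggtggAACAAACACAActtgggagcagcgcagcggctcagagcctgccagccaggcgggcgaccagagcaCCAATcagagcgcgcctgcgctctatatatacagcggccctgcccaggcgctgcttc
H2AC6: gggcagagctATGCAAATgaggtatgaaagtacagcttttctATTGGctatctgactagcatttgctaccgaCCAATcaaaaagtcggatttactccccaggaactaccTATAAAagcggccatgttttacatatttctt

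Over the 250 bases before the start, the octamer, a site of POU-domain factors, was present in 6 of 8 H2A and 8 of 11 H2B promoters and in 0 of 6 H1, 0 of 6 H3 and 0 of 7 H4 promoters, against 1.66% of all 27305 promoters. Within the H2B class H2BC12 had the octamer and H2BC5 did not. CCAAT was present in 33 of the 38 promoters (86.8%, against 33.0% of all), and 5 of the 7 H4 promoters lacked it. TATAAA was present in 25 (65.8%, against 11.1% of all). The H1 box was found in 4 promoters, all of the H1 class, against 0.0439% of all promoters. The core of the site bound by hypoxia-inducible factors, read as ACGTG or GCGTG, was present in 9 of 38 (23.7%) and in 43.1% of all promoters. It was in none of the 5 promoters shown over these 250 bases. These counts are descriptions of letters, and promoters of related histone genes share sequence.

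Of 14 probe sets for rhabdomyosarcoma and muscle markers, 10 lay above the median signal of the array and 8 among the brightest 25%, while those of MYF5, 1 of the 2 for DES and 2 of the 3 for PAX3 lay below the median. MYOD1, the myogenic master regulator gene, read between 11.89 and 12.09 on the 8 arrays and MYOG, another myogenic regulator gene, between 9.85 and 10.27 (log2 values). The labels also call the cells muscle fibroblasts, while all 10 probe sets of the fibroblast markers THY1, PDGFRB, LUM, DCN and FAP lay below the median signal of the array, as did all 5 of the leukocyte and all 5 of the endothelial markers. Of the epithelial markers, KRT19 lay below it and EPCAM just above it at 6.79, and EPCAM rose by 0.41 at 24 h (limma adjusted p = 0.0192); the part of such cells in the histone values was not tested. The median of all probe sets was between 6.69 and 6.72 on every array, and the interquartile range was 3.68 and 3.63 on the 12 h arrays, against 3.77 to 3.81 on the others.

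Signals of the 41 histone probe sets were mostly low. All values are log2 probe set summaries made with RMA, in which 1 unit is a 2-fold difference, and a signal is not a measure of how abundant 1 gene's RNA is relative to another's. Of the 41 probe sets, 35 lay below the median of all probe sets and 21 among the dimmest 25%, below 4.98. Their means over the 8 arrays ran from 4.48 to 7.70 in the H1 class, 3.75 to 7.27 in H2A, 3.53 to 9.46 in H2B, 3.58 to 5.66 in H3 and 4.17 to 7.34 in H4. H2BC12 was the only histone probe set of the 41 among the brightest 25%, above 8.72. Of the 6 probe sets for the genes known to make polyadenylated transcripts, 5 lay above the median of the array and the 6th, for H2BC21, was at 5.66. Low signals on arrays of this kind hold a share of unspecific binding, which shrinks measured changes.

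Measured changes of the 41 canonical histone probe sets were small through 24 h of hypoxia, and few were called. Each probe set was compared between times in limma, a linear model with a moderated variance fitted to all 8 arrays and all 22215 probe sets, and called at a Benjamini-Hochberg adjusted p under 0.05. After 6 h, 1 of 41 rose and 0 fell (2.44%), against 2.7% of all probe sets called, 1.85% higher and 0.855% lower. After 12 h it was again 1 that rose and 0 that fell, against 16.2% of all called, 6.36% higher and 9.85% lower. After 24 h it was 0 of 41 in limma, against 14.7% of all called, 6.86% higher and 7.8% lower, with 4 of the 41 at an unadjusted p under 0.05 (9.76%, against 28.7% of all). The moderated F-test over the 3 comparisons with 0 h called 1 of 41, against 12.6% of all. The called shares were not matched for signal, and 35 of the 41 lay below the median of all probe sets. In a fit without the dimmer 50% of probe sets, 6 histone probe sets stayed in. Of these, 2, 1 and 1 were called at 6, 12 and 24 h, against 18.7%, 41.9% and 40.5% of all. The median change of the 41 was 0.01 at 6 h, 0.02 at 12 h and -0.01 at 24 h, beside -0.02, 0.00 and -0.02 for all probe sets.

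The 95% intervals bound the measured change, and not the change in RNA where a signal is partly unspecific. The interval lay within 2-fold either way for 41 of 41 probe sets in all 6 comparisons between times. Within 1.5-fold either way it lay for 41 probe sets at 6 h, 39 at 12 h and 39 at 24 h against 0 h. The widest bound against 0 h was 1.5-fold at 6 h, 1.53-fold at 12 h and 1.55-fold at 24 h. A change of 2-fold or more in at least 1 of the 3 comparisons with 0 h was rare, in 130 of all 22215 probe sets and 0 of the 41. At so low a share among all probe sets, 0 of 41 does not set the histones apart. These intervals are for each probe set alone and rest on 2 arrays a time.

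**Figure D1:**
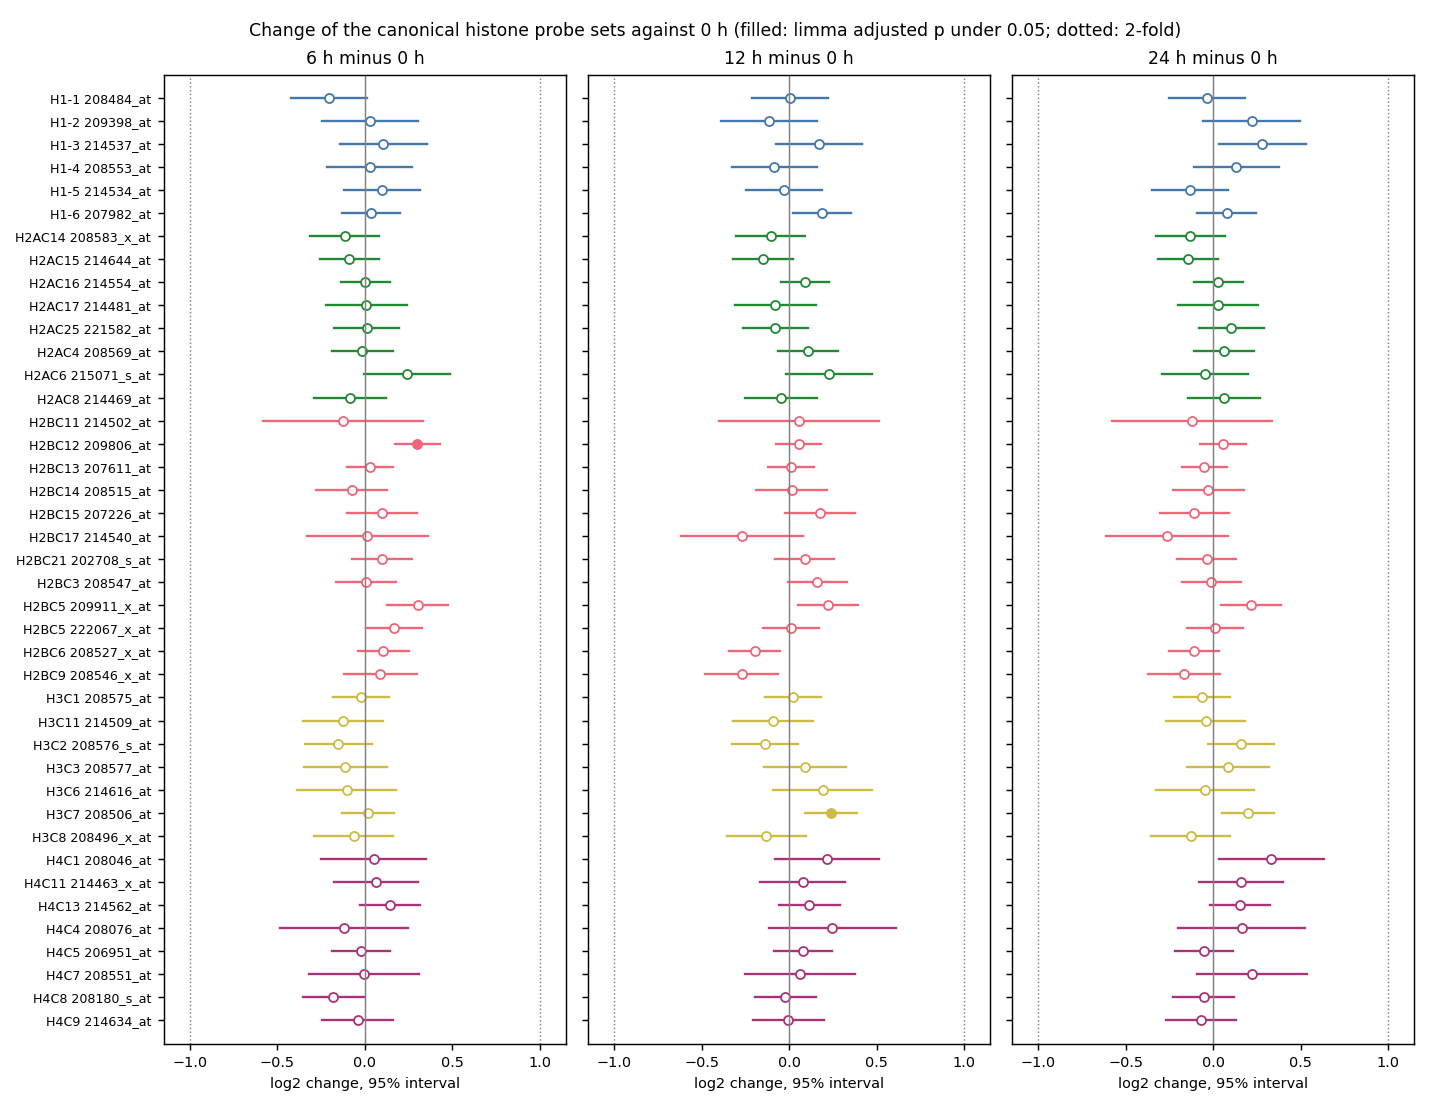
Log2 change of each of the 41 canonical histone probe sets at 6, 12 and 24 h relative to 0 h (horizontal axis), with 95% intervals from limma as bars. Colours mark the classes H1, H2A, H2B, H3 and H4 from top to bottom, filled points passed an adjusted p under 0.05, and dotted lines mark 2-fold. H2BC12 at 6 h and H3C7 at 12 h are the filled points, and no interval reaches a dotted line.

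H2BC12 (209806_at), an H2B gene, was the one that passed at 6 h. It read 9.38 and 9.34 at 0 h, 9.67 and 9.65 at 6 h, 9.43 and 9.40 at 12 h and 9.40 and 9.44 at 24 h. Both 6 h arrays stood above the other 6 arrays. Relative to 0 h it rose 1.23-fold at 6 h, by 0.30 ± 0.06 on the log2 scale (SE; 95% interval 0.17 to 0.43; limma adjusted p = 0.0389), and was at 0.05 at 12 h (adjusted p = 0.547) and 0.06 at 24 h (adjusted p = 0.575). From 6 to 12 h its change was -0.24 (adjusted p = 0.101) and from 6 to 24 h -0.24 (adjusted p = 0.0846), so the later decline was not called, though it was with an intensity-dependent variance (adjusted p = 0.0124 and 0.00724). The F-test over time gave an adjusted p of 0.035. The 6 h rise was not called once any of its 4 arrays was left out, with changes of 0.32 and 0.28 without 0 h replicate 1 and 2 (adjusted p = 0.217 and 0.267) and of 0.29 and 0.31 without 6 h replicate 1 and 2 (adjusted p = 0.249 and 0.172), nor among probe sets with no _x_at or _s_at suffix (adjusted p = 0.0581).

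H2BC5, another H2B gene, was the nearest follower at 6 h. Its probe set 209911_x_at read 7.93 and 8.02 at 0 h, 8.26 and 8.31 at 6 h, 8.29 and 8.12 at 12 h and 8.22 and 8.17 at 24 h. All 6 hypoxic arrays stood above both 0 h arrays, but the changes of 0.30, 0.22 and 0.22 did not pass (adjusted p = 0.087, 0.0845 and 0.101). With an intensity-dependent variance all 3 passed (limma adjusted p = 0.0167, 0.037 and 0.0456). The other probe set of the gene, 222067_x_at, read 7.48 and 7.53 at 0 h, 7.61 and 7.73 at 6 h, 7.55 and 7.47 at 12 h and 7.47 and 7.56 at 24 h. Both arrays were above those at 0 h at 6 h alone, with a change of 0.17 at 6 h (adjusted p = 0.272) and of 0.01 at both later times. The suffix _x_at marks probe sets whose probes also match other transcripts, so these values can carry signal from other H2B genes.

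The genes known to make polyadenylated transcripts are those that priming from poly(A) tails would favour. The brightest canonical histone probe set was still 205967_at, annotated to 14 H4 genes that are not among them, at a mean of 13.48. H1-2, H2AC6, H2BC5, H2BC12 and H2BC21 were measured by 6 probe sets, all 6 of them with a positive change at 6 h and a median of 0.20, against -0.02 for all probe sets. By 12 and 24 h the median was 0.07 and 0.03. At 6 h 1 of the 6 was called, against 2.7% of all probe sets, and 3 had an unadjusted p under 0.05, against 17.4% of all; the 6 include H2BC12 and both probe sets of H2BC5. H2AC6 read 7.05 and 7.29 at 0 h, 7.36 and 7.45 at 6 h, 7.49 and 7.31 at 12 h and 7.21 and 7.03 at 24 h. Its arrays at 6 and 12 h stood above those at 0 h, by 0.24 and 0.23, without passing (adjusted p = 0.301 and 0.181), and its 24 h arrays overlapped those at 0 h. H1-2, a linker histone gene, read 7.64 and 7.68 at 0 h, 7.54 and 7.84 at 6 h, 7.67 and 7.42 at 12 h and 7.95 and 7.82 at 24 h. Only its 24 h arrays were clear of the 0 h arrays, and the change of 0.22 did not pass (adjusted p = 0.276).

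**Figure D2:**
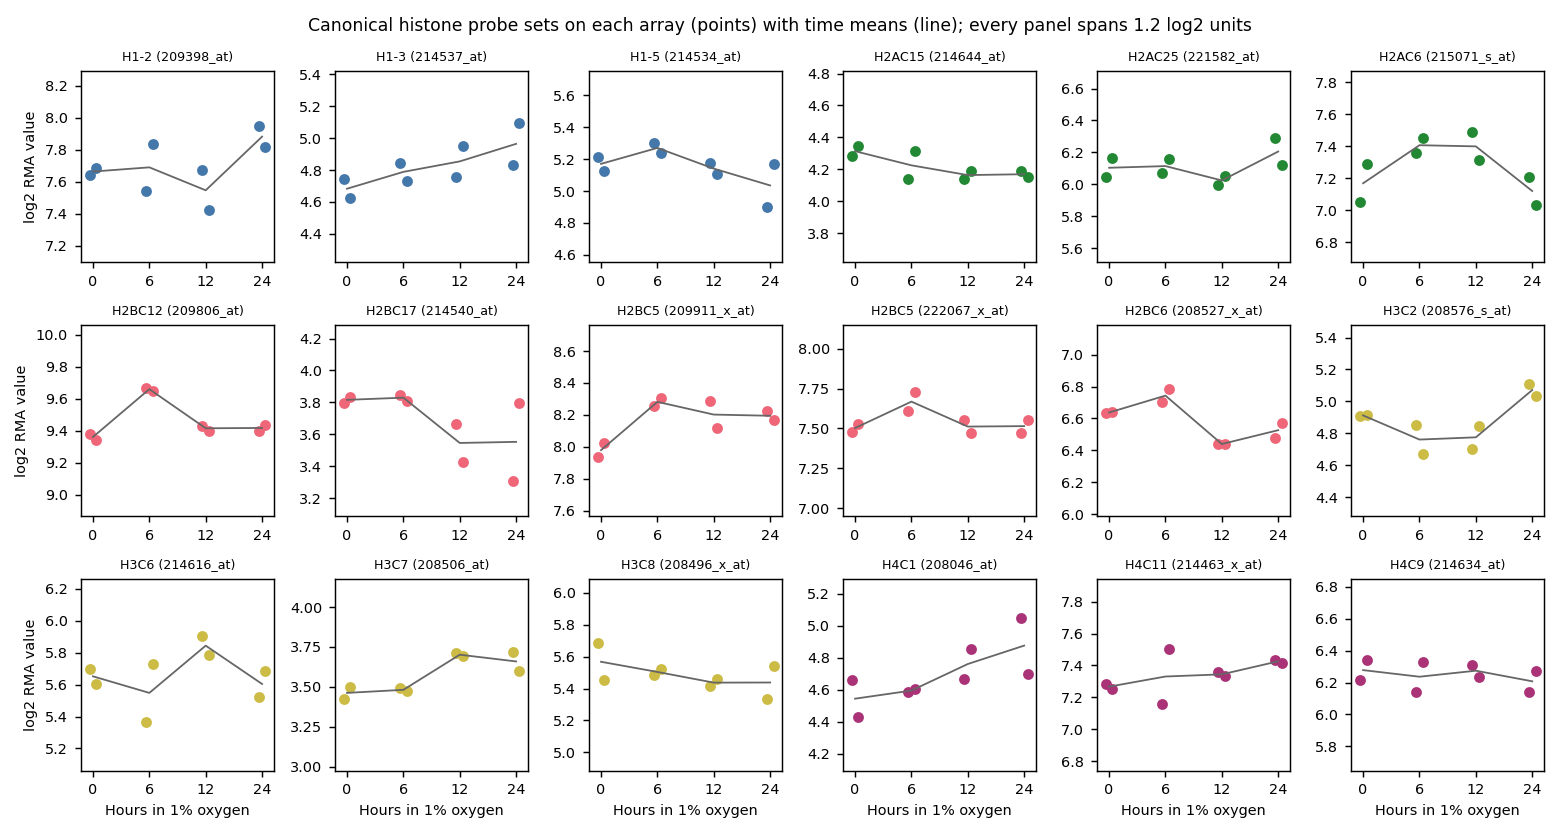
Log2 RMA value (vertical axis, each panel spanning 1.2 log2 units around its own mean) of 18 canonical histone probe sets against hours in 1% oxygen, with a point for each array and a line through the time means. In the H2BC12 panel both 6 h points lie at 9.67 and 9.65 and the other 6 points between 9.34 and 9.44. In the H3C7 panel the 12 h points are 3.71 and 3.69, against 3.42 and 3.50 at 0 h.

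Some other H2B probe sets moved differently from H2BC12 and H2BC5 at 12 and 24 h. H2BC6 (208527_x_at) read 6.63 and 6.64 at 0 h, 6.70 and 6.78 at 6 h, 6.44 on both arrays at 12 h and 6.48 and 6.57 at 24 h. Its 12 h arrays were the lowest, 0.20 below 0 h (adjusted p = 0.069), which was the change nearest to the threshold from outside at 12 h, and 0.30 below 6 h (adjusted p = 0.0895). H2BC9 (208546_x_at) had the same order of times, with changes of 0.09, -0.27 and -0.17. H2BC17, a dim probe set, read 3.80 and 3.83 at 0 h, 3.85 and 3.81 at 6 h, 3.67 and 3.43 at 12 h and 3.31 and 3.80 at 24 h. Its 24 h arrays lay further apart than the means of any times, and its change at 24 h, the lowest of the class, was -0.26 (adjusted p = 0.302). That change was -0.02 without 24 h replicate 1 (limma adjusted p = 0.945) and -0.51 without 24 h replicate 2, where it passed (limma adjusted p = 0.0353). In the H2B class as a whole 10 of 12 changes were above 0 at 6 h, 9 at 12 h and 3 at 24 h, with medians of 0.09, 0.04 and -0.04.

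In the H3 class H3C7 (208506_at) passed at 12 h. It read 3.42 and 3.50 at 0 h, 3.49 and 3.47 at 6 h, 3.71 and 3.69 at 12 h and 3.72 and 3.60 at 24 h. The arrays at 12 and 24 h stood above those at 0 and 6 h. Relative to 0 h it rose 1.18-fold at 12 h, by 0.24 ± 0.06 on the log2 scale (SE; 95% interval 0.09 to 0.39; limma adjusted p = 0.0427), and was at 0.20 at 24 h (adjusted p = 0.0844), the change nearest to the threshold at that time. Its mean signal of 3.58 was among the dimmest on the array, with 4.8% of probe sets below it. The dimmest 25% of all probe sets were also higher at 12 h, by a median of 0.06, and the brightest 25% were at -0.05, on the arrays with the narrower spread. After further quantile normalization, which gives all arrays 1 distribution, its change was 0.19 and was not called (adjusted p = 0.086). The call was also lost when any 1 of the 0, 6 and 12 h arrays was left out, with changes of 0.20 to 0.28 (adjusted p = 0.0752 to 0.223), and when the variance was allowed to follow the signal (adjusted p = 0.0839).

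The remaining H3 probe sets gave no call. H3C2 read 4.91 and 4.91 at 0 h, 4.85 and 4.67 at 6 h, 4.70 and 4.85 at 12 h and 5.11 and 5.04 at 24 h. Its 24 h arrays were the highest, 0.16 above 0 h (adjusted p = 0.256) and 0.30 above 12 h, which was the change nearest to the threshold between those times (adjusted p = 0.17). H3C6 read 5.70 and 5.60 at 0 h, 5.36 and 5.73 at 6 h, 5.90 and 5.79 at 12 h and 5.52 and 5.69 at 24 h. Its 6 and 24 h arrays spanned or overlapped the 0 h values. H3C8 read 5.68 and 5.45 at 0 h, 5.49 and 5.52 at 6 h, 5.42 and 5.46 at 12 h and 5.33 and 5.54 at 24 h. Its arrays at 6, 12 and 24 h overlapped the 0 h range or lay just below it, and its 24 h change of -0.13 was the lowest of the class (adjusted p = 0.445). H3C1, H3C3 and H3C11 lay between -0.13 and 0.09 at all 3 times.

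H1, H2A and H4 had no called probe set in any comparison. In the H1 class H1-3 read 4.74 and 4.62 at 0 h, 4.84 and 4.73 at 6 h, 4.76 and 4.95 at 12 h and 4.83 and 5.09 at 24 h. Its 12 and 24 h arrays were above both 0 h arrays, and the change at 24 h was 0.28 (95% interval 0.03 to 0.53; limma adjusted p = 0.128). H1-5 read 5.22 and 5.12 at 0 h, 5.30 and 5.24 at 6 h, 5.17 and 5.11 at 12 h and 4.90 and 5.17 at 24 h. It was at -0.14 at 24 h (adjusted p = 0.404), with 1 of its 24 h arrays within the 0 h range. H1-6, the testis-specific linker histone gene, was at 0.03, 0.19 and 0.08. In the H2A class the changes at 24 h ran only from -0.14 for H2AC15 (adjusted p = 0.248) to 0.10 for H2AC25 (adjusted p = 0.468). H2AC15 read 4.28 and 4.35 at 0 h, 4.14 and 4.31 at 6 h, 4.14 and 4.19 at 12 h and 4.19 and 4.15 at 24 h, and 1 of its hypoxic arrays, at 6 h, lay within the 0 h range. H2AC25 read 6.04 and 6.16 at 0 h, 6.07 and 6.16 at 6 h, 6.00 and 6.05 at 12 h and 6.29 and 6.12 at 24 h, with overlap of the 24 h and 0 h arrays.

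In the H4 class the largest change against 0 h was that of H4C1. It read 4.66 and 4.43 at 0 h, 4.58 and 4.61 at 6 h, 4.67 and 4.86 at 12 h and 5.05 and 4.70 at 24 h. Its 12 and 24 h arrays were above both 0 h arrays, and the 24 h change of 0.33 was the largest of all 41 against 0 h (95% interval 0.03 to 0.63; limma adjusted p = 0.136). H4C11, which had the highest signal of the class, read 7.28 and 7.25 at 0 h, 7.16 and 7.50 at 6 h, 7.36 and 7.33 at 12 h and 7.43 and 7.42 at 24 h, with a change of 0.16 at 24 h (adjusted p = 0.374). H4C9 read 6.22 and 6.34 at 0 h, 6.14 and 6.33 at 6 h, 6.31 and 6.24 at 12 h and 6.14 and 6.27 at 24 h, with a change of -0.07 at 24 h (adjusted p = 0.664) and overlapping arrays. The class median was -0.01 at 6 h, 0.08 at 12 h and 0.16 at 24 h. H4C4 had the widest range over the 8 arrays of the 41, at 0.74, with 5.05 and 4.64 on its 12 h arrays.

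Between hypoxic times no histone probe set was called by limma. The count was 0 of 41 from 6 to 12 h, 6 to 24 h and 12 to 24 h, against 0.117%, 1.48% and 0.144% of all probe sets. At an unadjusted p under 0.05 there were 6, 8 and 5 of 41, or 14.6%, 19.5% and 12.2%, against 20.9%, 16.9% and 16.4% of all. At 12 h 16 of 41 had both arrays above both 0 h arrays, against 29% of all, and 6 had both below, against 32.7%. At 24 h these counts were 14 (25.3% of all) and 6 (32.2% of all), and at 6 h 9 (23.3% of all) and 7 (30.3% of all). The median range of a histone probe set over the 8 arrays was 0.33, beside 0.34 for all probe sets.

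**Figure D3:**
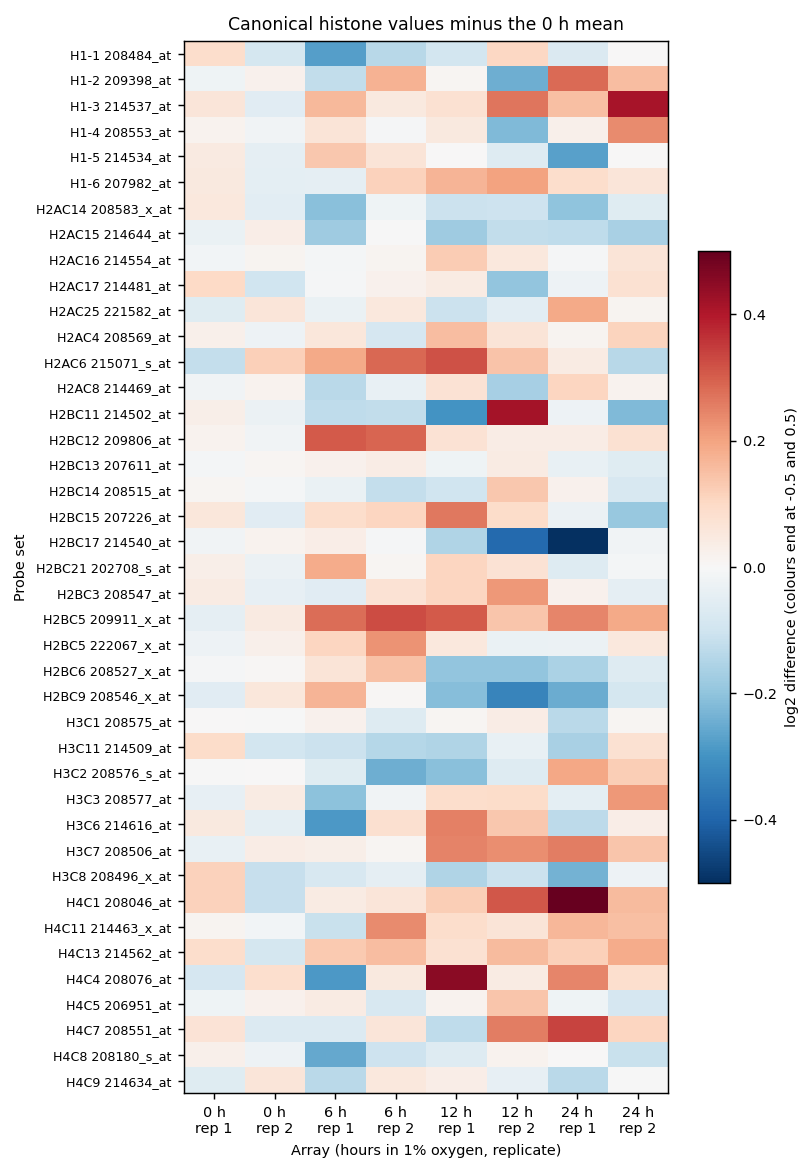
Value of each canonical histone probe set (rows, ordered by class and gene) on each array (columns, by hours in 1% oxygen and replicate) minus its 0 h mean, in log2 units. Red is above and blue below the 0 h mean, with colours ending at 0.5, a limit that 2 of 328 values pass slightly. H2BC12 and H2BC5 show red on both 6 h arrays, and the row of H3C7 is red on the arrays at 12 and 24 h.

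A further 20 probe sets are annotated to several canonical histone genes at once, because their probes match shared sequence, and they gave no call against 0 h. Of the 20, 0 were called at 6, 12 or 24 h in limma, against 2.7%, 16.2% and 14.7% of all. At an unadjusted p under 0.05 there were 0, 1 and 2 (0%, 5% and 10%, against 17.4%, 31.4% and 28.7% of all), with medians of -0.01, 0.04 and 0.05. The brightest of them, 205967_at, is annotated to 14 H4 genes and read 13.48 and 13.47 at 0 h, 13.42 and 13.51 at 6 h, 13.43 and 13.45 at 12 h and 13.55 on both arrays at 24 h. It was at 0.08 at 24 h (95% interval -0.06 to 0.21; adjusted p = 0.447). The largest change of these 20 at 24 h was 0.42, for 210387_at, which did not pass (adjusted p = 0.0957). H2BC12L and H3-4, whose symbols fall just outside the rule, were at 0.21, -0.12 and -0.04 and at 0.02, -0.11 and -0.12, with no call.

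Histone variant genes gave calls at all 3 times. Most of them make ordinary polyadenylated RNA outside S phase too, while H2AX also has a stem-loop form of its RNA and CENPA, the centromere variant, is cell cycle regulated. Of 17 probe sets for 9 measured genes, 2 rose and 0 fell at 6 h (11.8%, against 2.7% of all). At 12 h 2 rose and 2 fell (23.5%, against 16.2% of all). At 24 h 4 rose and 0 fell (23.5%, against 14.7% of all). Whether these shares differed from those of all probe sets or of the canonical histones was not tested. Of the 17, 12 lay among the brightest 25% of all probe sets, against 1 of the 41 canonical ones. H3-3A, which encodes the replacement histone H3.3, read 7.95 and 7.94 at 0 h, 8.36 and 8.31 at 6 h, 8.41 and 8.45 at 12 h and 8.55 and 8.57 at 24 h. All its hypoxic arrays were above those at 0 h, and it rose by 0.39, 0.49 and 0.62 (limma adjusted p = 0.0141, 0.00223 and 0.000618). The linker variant gene H1-10 rose by 0.45 at 24 h (adjusted p = 0.011). For H2AX, the variant marked at DNA breaks, 213344_s_at rose by 0.51 at 24 h while the other 3 probe sets were at -0.07, 0.13 and -0.26, and for MACROH2A1 214500_at rose by 0.43 while the other 2 were at -0.02 and 0.04.

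Genes that serve canonical histones were taken as a processing and transcription list and a chaperone list. SLBP, the protein that binds the stem-loop of histone messenger RNA, read 11.58 and 11.64 at 0 h, 11.67 and 11.65 at 6 h, 11.62 and 11.65 at 12 h and 11.76 and 11.75 at 24 h, and its change of 0.15 at 24 h did not pass (adjusted p = 0.13). NPAT, the activator of histone gene transcription, had 3 probe sets at 0.24, -0.05 and -0.02 at 24 h with no call. Among 27 probe sets for 16 genes of histone messenger RNA processing and transcription, 1 rose and 0 fell at 6 h (3.7%, against 2.7% of all), 1 rose and 2 fell at 12 h (11.1%, against 16.2% of all), and 1 rose and 2 fell at 24 h (11.1%, against 14.7% of all). Whether these shares differed from those of all probe sets was not tested. At 24 h SNRPE, of the Sm ring that the U7 particle partly shares with spliceosomal particles, rose by 0.39 on 1 of its 2 probe sets, with the other at -0.06. ZNF473, a U7-associated processing factor gene, fell by 0.40 on 1 of its 2 probe sets, and CSTF2, a cleavage factor gene, fell by 0.26. Of 36 probe sets for 19 histone chaperone and deposition genes, 0 rose and 1 fell at 6 h (2.78%, against 2.7% of all), 0 rose and 6 fell at 12 h (16.7%, against 16.2% of all), and 6 rose and 4 fell at 24 h (27.8%, against 14.7% of all). Whether this share differed from that of all probe sets was not tested, and for several genes not all probe sets were called. Among those that rose at 24 h were NASP at 0.49 and ASF1B at 0.27, which hand new histones to chromatin, and 4 of 6 probe sets of the nucleosome assembly gene NAP1L1 at 0.27 to 0.39. Those that fell at 24 h were ASF1A at -0.48, UBN1 at -0.29, IPO4 at -0.28 and ATRX at -0.24.

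S phase genes gave most of their calls at 24 h. Of 51 probe sets for 31 genes, 0 were called at 6 h (against 2.7% of all), with 8 at an unadjusted p under 0.05 in limma (15.7%, against 17.4% of all). At 12 h 0 rose and 3 fell (5.88%, against 16.2% of all), and 9 rose and 1 fell at 24 h (19.6%, against 14.7% of all). TK1, thymidine kinase, rose by 0.45, the helicase subunit genes MCM4 and MCM6 by 0.43 and 0.34 and the primase gene PRIM1 by 0.31 at 24 h, while DSCC1, a clamp loader subunit gene, fell by 0.30 on 1 probe set and was at 0.15 on the other. For MCM4 2 of 4 probe sets rose. Their median change was 0.01, -0.06 and 0.12 at 6, 12 and 24 h, beside 0.01, 0.02 and -0.01 for the canonical histones. Whether the lists differed was not tested. They also differ in signal, with 3 of the 51 S phase probe sets below the median of all probe sets, against 35 of the 41 histone ones. In a bulk sample the share of cells in S phase and the amount of histone RNA in each such cell cannot be told apart.

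**Figure D4:**
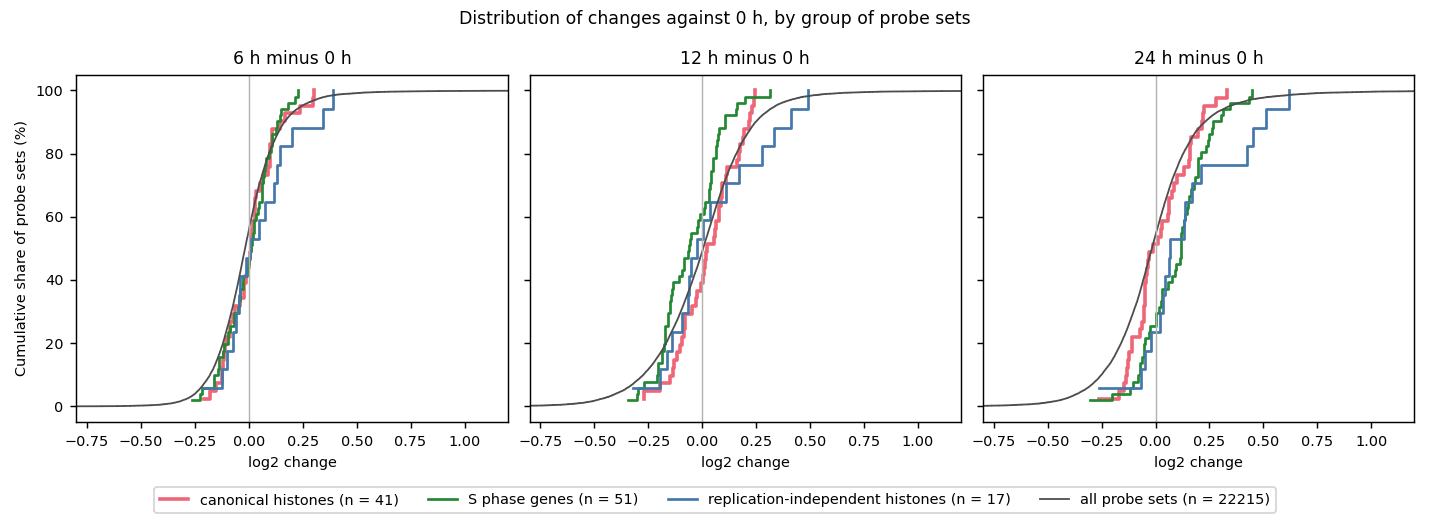
Cumulative share of probe sets (vertical axis, percent) against log2 change at 6, 12 and 24 h relative to 0 h (horizontal axis, which stops at -0.8 and 1.2) for canonical histones, S phase genes, variant histones (drawn as replication-independent histones) and all probe sets. The canonical histone curve stays between -0.27 and 0.33 at all 3 times. At 24 h the S phase median is 0.12, against -0.01 for the canonical histones. Signals differ, with 35 of 41 canonical histone and 3 of 51 S phase probe sets below the median of all probe sets.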

How the data were processed

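Each of the 8 arrays measured 1 sample of total RNA, labelled after a single round of amplification per the labels' protocols. The authors deposited 1 log2 value for each probe set and array. The submitters' processing notes name RMA as the summary method, and neither a version nor the software for it is given in the sources used here. RMA in its usual form equalises the distribution of probe values between arrays, so changes are relative to everything else on the array. Depth has no meaning here, and the number of arrays limits the precision.

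Gene symbols came from a platform annotation of 2016, in which 19070 probe sets had 1 symbol, 1043 had several and 2164 had none listed. All 41 histone probe sets matched a RefSeq gene by Entrez ID. The 62 control probe sets were left out and no filter on signal was applied. A linear model with 1 mean for each of the 4 times was fitted over the 8 arrays (limma 3.58.1, R 4.3.3; 4 residual and 3.7 prior degrees of freedom), with two-sided tests, Benjamini-Hochberg adjustment over 22215 probe sets and a threshold of 0.05. Intervals are 95% intervals of the moderated fit. The procedure was tested on simulated data. The test required recovery of large changes and few false calls, so it does not show that changes as small as those of the histones would be called.

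Histone probe sets described with values on each array were those called in any comparison, the brightest and the most changed at 24 h in each class, those nearest the threshold and every probe set of the same genes. Others with values were chosen after their values were seen. The members and all lists were chosen with earlier results of these data known. Of the listed genes, some were not analysed here. Alternatives covered normalization, variance model, filters, threshold, probe set choice, pairing and leaving out arrays.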

Additional observations from a re-analysis of the deposited data

How the results depend on the processing

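The number of histone probe sets called was 1, 1 and 0 at 6, 12 and 24 h against 0 h, 0 between hypoxic times and 1 in the F-test. With an intensity trend in the variance it was 2 at 6 h, 1 at 24 h, 1 from 6 to 12 h, 1 from 6 to 24 h and 2 in the F-test, with 8.6%, 21%, 5.59%, 7.06% and 24.9% of all probe sets called. The probe set called at 12 h was H3C7, but H2BC5 with the intensity trend, with further quantile normalization and without the dimmer 50%. Without the dimmest 25% of probe sets, 20 histone probe sets stayed in and the counts were 2 at 6 h, 1 at 12 h (H2BC6, which fell), 1 from 6 to 24 h and 2 in the F-test, against 6.31%, 26.3%, 4.61% and 24.4% of all; H3C7 was removed. Without the dimmer 50%, 6 stayed in and the counts were 2 at 6 h, 1 at 24 h, 1 from 6 to 12 h, 1 from 6 to 24 h and 3 in the F-test, against 18.7%, 40.5%, 11.1%, 13.8% and 45.9% of all. Further quantile normalization and 1 probe set per gene each gave 2 in the F-test. Counts at 6 h, 12 h and in the F-test were 0 without _x_at and _s_at probe sets and 0 at an adjusted p under 0.01, and at 12 h 0 with only the arrays of the times compared. At an adjusted p under 0.1 they were 2, 4 and 1 at 6, 12 and 24 h, 1 from 6 to 12 h, 1 from 6 to 24 h and 6 in the F-test, against 5.42%, 24%, 21%, 2.25%, 4% and 22.3% of all. Leaving out each array in turn gave 0 to 1 in each comparison with 0 h, from 6 to 12 h and from 12 to 24 h, 0 from 6 to 24 h and 0 to 2 in the F-test. H2BC11 was called at 12 h without 12 h replicate 1 (0.42; limma adjusted p = 0.0245). A lone array was assumed to vary like the other groups. Deviations of same-numbered arrays correlated at -0.135 to 0.0842 over probe sets, above 0 in 2 of 6 pairs of times. No clear shared replicate effect was seen, though 2 arrays a time cannot show whether same-numbered samples were handled together. With the replicate block the counts at 6 h, 12 h and in the F-test were 0, against 1.5%, 13% and 8.47% of all, with H2BC12 at an adjusted p of 0.0777 and H3C7 at 0.0681. H2BC11 read 4.59 and 5.31 on its 12 h arrays, on either side of its 0 h arrays at 4.92 and 4.87. Neither change called in the main fit, H2BC12 at 6 h and H3C7 at 12 h, turned its direction in these settings. The cause of these differences was not tested, beyond the smaller number of probe sets or arrays that some settings use. Of the 41 histone probe sets, 21 lay among the dimmest 25% of all, and the part of low signal in the few calls was not tested.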
